A study of Mus musculus with 31 samples.

Results

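Serpina3c, Serpina3f, Serpina3g, Serpina3i, Serpina3k, Serpina3m and Serpina3n are mouse genes of a cluster of related protease inhibitors on chromosome 12. They were taken as the genes of the count table whose symbol equals one of these names, and 7 of its 39179 genes were found this way.

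Serpins are proteins that trap a protease: the protease cuts an exposed loop of the serpin, the serpin changes shape, and both are left bound and inactive. Humans have a lone SERPINA3 gene, which encodes alpha-1-antichymotrypsin, a plasma protein made by the liver in the acute phase response, whereas the mouse locus has expanded into many copies that differ in the loop and so in the proteases they bind. Serpina3n, the most studied copy, inhibits granzyme B and neutrophil proteases and rises in many tissues with inflammation, and glucocorticoids are known to raise acute phase genes together with cytokines of the IL-6 family.

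The samples come from a study of glucocorticoids (GC) in melanoma, which compared a mouse melanoma line, 20967, with a derivative that lacks the glucocorticoid receptor (GR, gene Nr3c1). Bulk RNA was sequenced from the 3′ ends of messages in 20 whole tumors and 11 cultures. The 4 tumor groups were parental control, parental GC, GR KO control and GR KO GC, with 5 mice each, and GC was clobetasol propionate, a potent glucocorticoid, as a 0.05% ointment on the skin 3 times weekly. The culture groups were parental cells with DMSO (3 cultures) or GC (2 cultures) and GR KO cells with DMSO (3 cultures) or GC (3 cultures).

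Both lines stem from a C57BL/6 mouse with an inducible Nras G12D allele, switched on by Tyr::CreERT2, a Cre recombinase that the tyrosinase promoter drives in melanocytes. Tumors were grown in the skin of wild type C57BL/6 mice, so that host cells in GR KO tumors still carry the receptor. The GR KO cells were edited with CRISPR and grown from single clones that were screened by Western blot, so a genotype comparison also compares a clone with the line it came from. Treatment of the cultures lasted 48 hours, and the dose of clobetasol propionate is 1 µM in the library names and 10 µM in the treatment labels. The age and sex of the mice are not in the labels.

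The tumors had between 15528066 and 26386770 assigned reads and the cultures between 14441166 and 22463188. A count of 3 was treated as the floor, which is 0.108 to 0.216 CPM (read counts scaled to the library total) in a tumor and 0.139 to 0.213 CPM in a culture. Levels are CPM scaled with TMM factors, and since each message gives reads from its 3′ end, they are not divided by gene length. Reads are copies from PCR, so the counting intervals and floors given here cover counting error only.

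The labelled cell type was checked with 6 melanocyte markers. Their summed level was 2.60 to 14.0 CPM in the tumors, where Tyr had 0 counts in all 20. In the 11 cultures the sum was 0 to 0.532 CPM, and Dct, Mlana, Sox10 and Tyr had 0 counts in every culture. Counts for Nr3c1 itself were present in GR KO cells, with a mean of 21.3 ± 4.59 CPM (SD, n = 3) with DMSO against 33.6 ± 2.87 CPM (SD, n = 3) in parental cells, and reads from the 3′ end do not show whether the protein is made.

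The 7 genes lie on chromosome 12 (GRCm38, GENCODE M21) between bases 104146382 and 104414329, a span of 267947 bases that holds 12 of the 14 genes named Serpina3. Serpina3c is on the minus strand and the other 6 are on the plus strand. Serpina3n (ENSMUSG00000021091) takes bases 104406729 to 104414329 at the end of the span. Serpina3m (ENSMUSG00000079012) is annotated from 104338486 to 104394257, and the whole of Serpina3k (104338486 to 104346144) lies inside it.

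Copies of a gene can share reads, so the last 300 bases of the annotated transcripts were compared. No 50-base stretch in this window of Serpina3c, Serpina3k, Serpina3m or Serpina3n occurred in a transcript of another Serpina3 gene. The share was 5.06% of stretches for Serpina3f, 22.0% for Serpina3g and 24.3% for Serpina3i, for the last 2 most often with Serpina3h. With 75-base stretches the shares were 0%, 12.3% and 6.42%. A read from such a stretch fits more than 1 gene, and how many reads were lost that way is not in the counts.

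Serpina3n had the highest level of the 7 in all but 5 of the 20 tumors, where Serpina3g was higher. In parental control tumors 1 to 5 its level was 29.5, 43.5, 28.1, 40.2 and 24.0 CPM, and in parental GC tumors 1 to 5 it was 83.1, 36.6, 81.8, 49.7 and 69.6 CPM. Of the 5 GC tumors, 4 lay above all 5 controls, and GC tumor 2 lay within their range. In GR KO control tumors 1 to 5 it was 7.14, 19.4, 23.2, 52.9 and 16.9 CPM, and in GR KO GC tumors 1 to 5 it was 60.4, 62.6, 77.5, 40.7 and 64.1 CPM. Again 4 of 5 GC tumors lay above all controls, GR KO control tumor 4 was the highest control of either genotype, and control tumor 1 was the lowest of all 20 tumors.

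The mean level of Serpina3n was 33.1 ± 8.36 CPM in parental control, 64.2 ± 20.4 in parental GC, 23.9 ± 17.2 in GR KO control and 61.1 ± 13.2 in GR KO GC tumors (SD, n = 5 each). Ordered by their means, each tumor group overlapped its neighbor in the order, and all 4 lay above every culture. An exact two-sided permutation test of log2(CPM + 1) gave p = 0.0238 for GC against control in parental tumors and p = 0.0159 in GR KO tumors, with a smallest possible p of 0.00794 (n = 5 in each group). With edgeR over all genes and Benjamini-Hochberg adjustment, the log2 fold change with GC was 0.95 ± 0.333 (SE) in parental tumors (adjusted p = 0.193, all 5 GC tumors above the control mean) and 1.40 ± 0.337 in GR KO tumors (adjusted p = 0.0169, again 5 of 5).

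The larger value in GR KO tumors was not shown to differ from the parental one. The difference of both GC effects, parental minus GR KO, was -0.45 on the log2 scale with a 95% interval from -1.37 to 0.47 (edgeR with Benjamini-Hochberg adjustment, adjusted p = 0.616). Over 20 fits that each left out 1 tumor, this difference ran from -0.929 to -0.221 (edgeR adjusted p from 0.128 to 0.799). Without GR KO GC tumor 3 the GR KO value was 1.31 with an adjusted p of 0.0592, above 0.05, so that it was no longer called (1.91% of all genes were called in that fit), and over the 10 fits that each left out 1 tumor of these groups the adjusted p ran from 9.28e-04 to 0.0592. Between genotypes, Serpina3n changed by -0.50 in control tumors (edgeR adjusted p = 0.412, 4 of 5 GR KO tumors below all parental controls) and by -0.05 in GC tumors (adjusted p = 0.972). Without GR KO control tumor 4, the value in control tumors was -0.98 with an adjusted p of 0.0348, in a fit that called 11.1% of all genes.

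In the cultures Serpina3n was close to 0. Its counts were 0, 0 and 3 in parental DMSO cultures, 16 and 26 in parental GC cultures, 0, 4 and 0 in GR KO DMSO cultures and 0 in all 3 GR KO GC cultures. Both parental GC cultures, at 1.13 and 1.20 CPM, lay above all 9 others. The 42 counts with GC against 3 with DMSO in parental cells give a ratio of 18.7 after scaling, with a counting interval of 5.98 to 94.3, and the DMSO mean of 0.0599 CPM lies under the floor of 3 counts. The exact permutation test gave p = 0.1, the smallest that 2 against 3 cultures allow.

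Serpina3m was far less abundant, and its counts stood at or near 0 without GC. The counts were 0, 10, 4, 2 and 0 in parental control tumors 1 to 5 and 47, 50, 42, 51 and 34 in parental GC tumors 1 to 5. All 5 GC tumors, at 1.87 to 2.52 CPM, lay above all 5 controls. In GR KO control tumors 1 to 5 the counts were 0, 1, 0, 0 and 0, and in GR KO GC tumors 1 to 5 they were 40, 45, 18, 1 and 21. GR KO GC tumor 4, with a single count, overlapped the controls, and the other 4 lay above them at 0.804 to 2.39 CPM.

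For Serpina3m, GC gave 224 counts against 16 in parental tumors, a ratio of 14.3 with a counting interval of 8.64 to 25.5. In GR KO tumors it gave 125 counts against 1, a ratio of 102 with an interval of 17.9 to 4051. The control means, 0.159 CPM in parental and 0.0117 CPM in GR KO tumors, lie under the highest floor of their groups, 0.189 and 0.216 CPM. Neither ratio is therefore a lower bound, and the intervals cover counting error only. The exact permutation test gave p = 0.00794 in parental and p = 0.0159 in GR KO tumors (n = 5 in each group). The edgeR log2 fold change was 3.78 ± 1.07 (SE) in parental tumors (Benjamini-Hochberg adjusted p = 0.105) and 6.06 ± 1.31 in GR KO tumors (adjusted p = 0.00922), each with 5 of 5 GC tumors above the control mean. The value in GR KO tumors rests on a control group with 1 count, so it depends on the prior count of the fit.

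Serpina3m passed the threshold in GR KO and not in parental tumors, and the test of the difference gave -2.29 on the log2 scale (edgeR with Benjamini-Hochberg adjustment, 95% interval -5.17 to 0.59, adjusted p = 0.386). The gene was tested only because its GC tumors reached the filter, and the GR KO controls held 1 count. Neither the call nor this difference therefore shows an effect of the genotype. Among GC tumors, 4 of 5 GR KO tumors lay below all parental ones, and the mean was 1.18 ± 0.909 against 2.24 ± 0.315 CPM (SD, n = 5, exact permutation p = 0.0317). The edgeR value for that comparison was -0.91 (adjusted p = 0.758). Between control tumors it was -3.19 (adjusted p = 0.165), on 1 count against 16.

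In the cultures, Serpina3m had 22 and 46 counts in the parental GC cultures and 0 in the 9 others. These 2 cultures were at 1.56 and 2.13 CPM, and the second lay within the range of the parental GC tumors. Against the floor of 3 counts per library, the parental GC mean was at least 9.25-fold higher than with DMSO. In GR KO cultures with GC the gene was not detectable at this depth.

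**Figure D1:**
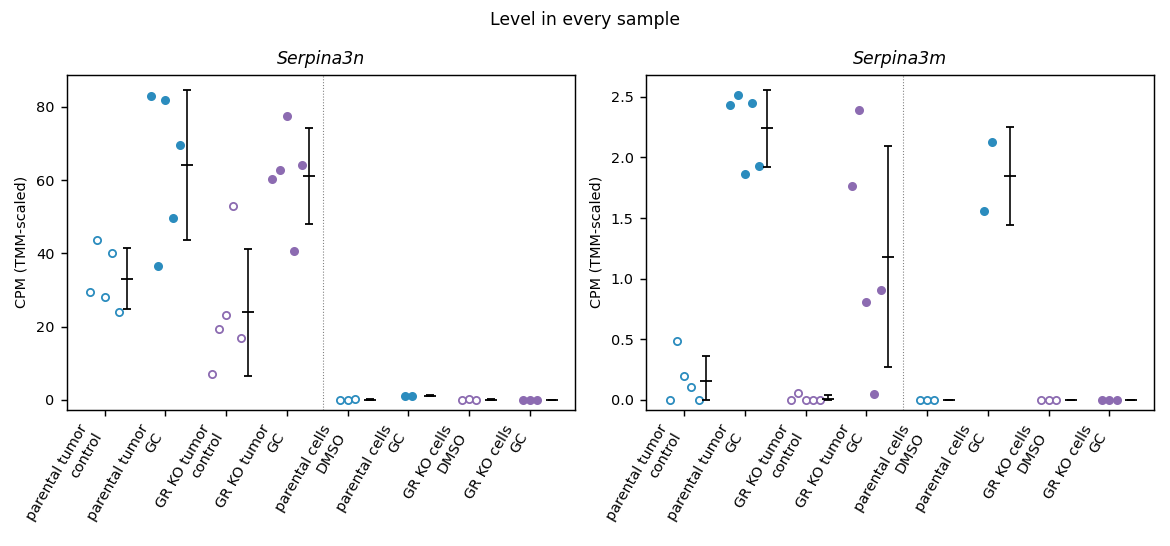
Level of Serpina3n and Serpina3m in each of the 31 samples (CPM scaled with TMM factors, linear axes), by group. Open points are control or DMSO and filled points GC, and bars give the mean and SD of each group, drawn no lower than 0. Serpina3m lies above all other cultures in both parental GC cultures, and 4 of 5 GC tumors of each genotype lie above all their controls for Serpina3n.

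A gene was called when its Benjamini-Hochberg adjusted p was under 0.05 and its linear change at least 1.5-fold. Serpina3k did not reach the filter of 0.5 CPM in 3 tumors, so 6 of the 7 genes were tested in tumors, and no gene of the 7 passed it in the cultures. For GC in parental tumors, edgeR called 0 of 6 members beside 0.779% of all 15919 genes, 2 members had an unadjusted p under 0.05, and DESeq2 called 0 of the 3 members to which it gave an adjusted p, beside 2.36% of all genes. It gave none to Serpina3c, Serpina3i and Serpina3m, and the DESeq2 value of Serpina3m was 3.83 with an unadjusted p of 6.92e-05. For GC in GR KO tumors, edgeR called 2 of 6, Serpina3m and Serpina3n, beside 6.42% of all genes, and DESeq2 called the same count, 2, beside 11.0%. Serpina3m passed the filter through GC tumors alone, since no control tumor had more than 0.484 CPM. Its call is therefore not comparable with the share of all genes. The DESeq2 values for Serpina3m and Serpina3n were 6.18 (adjusted p = 1.48e-04) and 1.37 (adjusted p = 0.00187).

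In each of the other tumor comparisons, edgeR called 0 of 6 members. The background was 0.195% of all genes for the difference of the GC effects, 2.25% for GR KO against parental control tumors and 0.634% for GR KO against parental GC tumors. The members with an unadjusted p under 0.05 numbered 0, 1 and 0. DESeq2 called 0 of 3, 0 of 6 and 0 of 5 members with an adjusted p, beside 4.92%, 6.29% and 1.84% of all genes. Serpina3c, Serpina3i and Serpina3m had no adjusted p in the first of these and Serpina3m had none in the last. These comparisons share groups, so their values are not independent of one another.

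Without the filter on low counts, edgeR tested 6 members in parental cultures, all but Serpina3f, and called 0 of them with GC, beside 0.829% of 18341 genes. The adjusted p was 0.0503 for Serpina3m, 0.627 for Serpina3n and 0.751 to 0.812 for the other 4. With the filter, which asks for 3 samples, 0 members were tested in cultures, where GC changed 0.878% of 12525 genes in parental and 0% in GR KO cells by edgeR. In GR KO cells 237 genes had an unadjusted p under 0.05 and DESeq2 called 0. The background was 0.295% for the difference of the GC effects between the lines and 8.22% for GR KO against parental cells with DMSO.

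The median log2 fold change of the 6 tested members with GC was 0.88 in parental and 0.84 in GR KO tumors, beside 0.00 and 0.05 for all genes. All 6 had a value above 0 in parental tumors and 4 of 6 in GR KO tumors, beside 50.2% and 52.8% of all genes. Neither median depends on the size of the value for Serpina3m, which was the highest of the 6 in both. Both are raised by its inclusion, and it passed the filter through GC tumors alone. The medians and counts of the members are therefore not comparable with those of all genes.

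Serpina3g, also known as Spi2A, is an inhibitor that acts inside cells and blocks cysteine cathepsins as well as serine proteases. It ranged from 12.5 to 41.9 CPM over the 20 tumors, with means of 21.2 ± 7.94 in parental control, 24.0 ± 11.5 in parental GC, 30.8 ± 10.9 in GR KO control and 20.7 ± 3.65 CPM in GR KO GC tumors (SD, n = 5 each). All neighboring groups overlapped. Its GC effect was 0.18 in parental (edgeR adjusted p = 0.851, 3 of 5 GC tumors above the control mean) and -0.55 in GR KO tumors (adjusted p = 0.299, 5 of 5 below the control mean), on the log2 scale. The value in parental tumors was -0.13 without GC tumor 4, the highest of its group.

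Serpina3f ranged from 2.01 to 15.4 CPM in tumors and had 0 counts in all 11 cultures. Its GC effect was 0.80 in parental tumors (edgeR adjusted p = 0.438, 5 of 5 above the control mean, exact permutation p = 0.0476) and 0.43 in GR KO tumors (adjusted p = 0.595, 3 of 5 above). The groups overlapped in both genotypes, and the value in GR KO tumors ran from 0.0720 to 0.679 when 1 tumor at a time was left out.

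Serpina3c ranged from 0 to 5.37 CPM in tumors. It lay between 1.31 and 1.77 CPM in all 5 parental control tumors, and above them in 4 of 5 parental GC tumors, at 3.24 to 4.66 CPM (exact permutation p = 0.0317). GR KO control tumors 1 and 5 had 0 counts, and GR KO GC tumors spread from 0.413 to 5.37 CPM (exact permutation p = 0.135). The edgeR GC effect was 1.24 in parental (adjusted p = 0.522) and 1.25 in GR KO tumors (adjusted p = 0.367), with 4 of 5 GC tumors above the control mean in each.

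Serpina3i ranged from 0 to 3.44 CPM in tumors, and 4 of 5 GR KO control tumors, at 3.05 to 3.44 CPM, lay above all parental controls. Control tumor 1 of GR KO had 0 counts, and the exact permutation p for the genotypes was 0.262. Its edgeR GC effects were 0.05 in parental (adjusted p = 0.986) and -0.32 in GR KO tumors (adjusted p = 0.842). The sign in parental tumors turned when any 1 of 3 tumors was left out, with values between -0.24 and 0.42 over all 10 fits.

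Serpina3k encodes kallikrein-binding protein, which is made mainly by the liver. It had 1, 0, 7, 0 and 5 counts in parental GC tumors 1 to 5 and 3, 0, 7, 0 and 0 in GR KO GC tumors 1 to 5. All 10 control tumors had 0 counts. Both GC means, 0.129 and 0.0890 CPM, are under the floor of a library, so no fold is given. The hepatocyte markers in the same samples summed to 0 to 5.12 CPM.

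**Figure D2:**
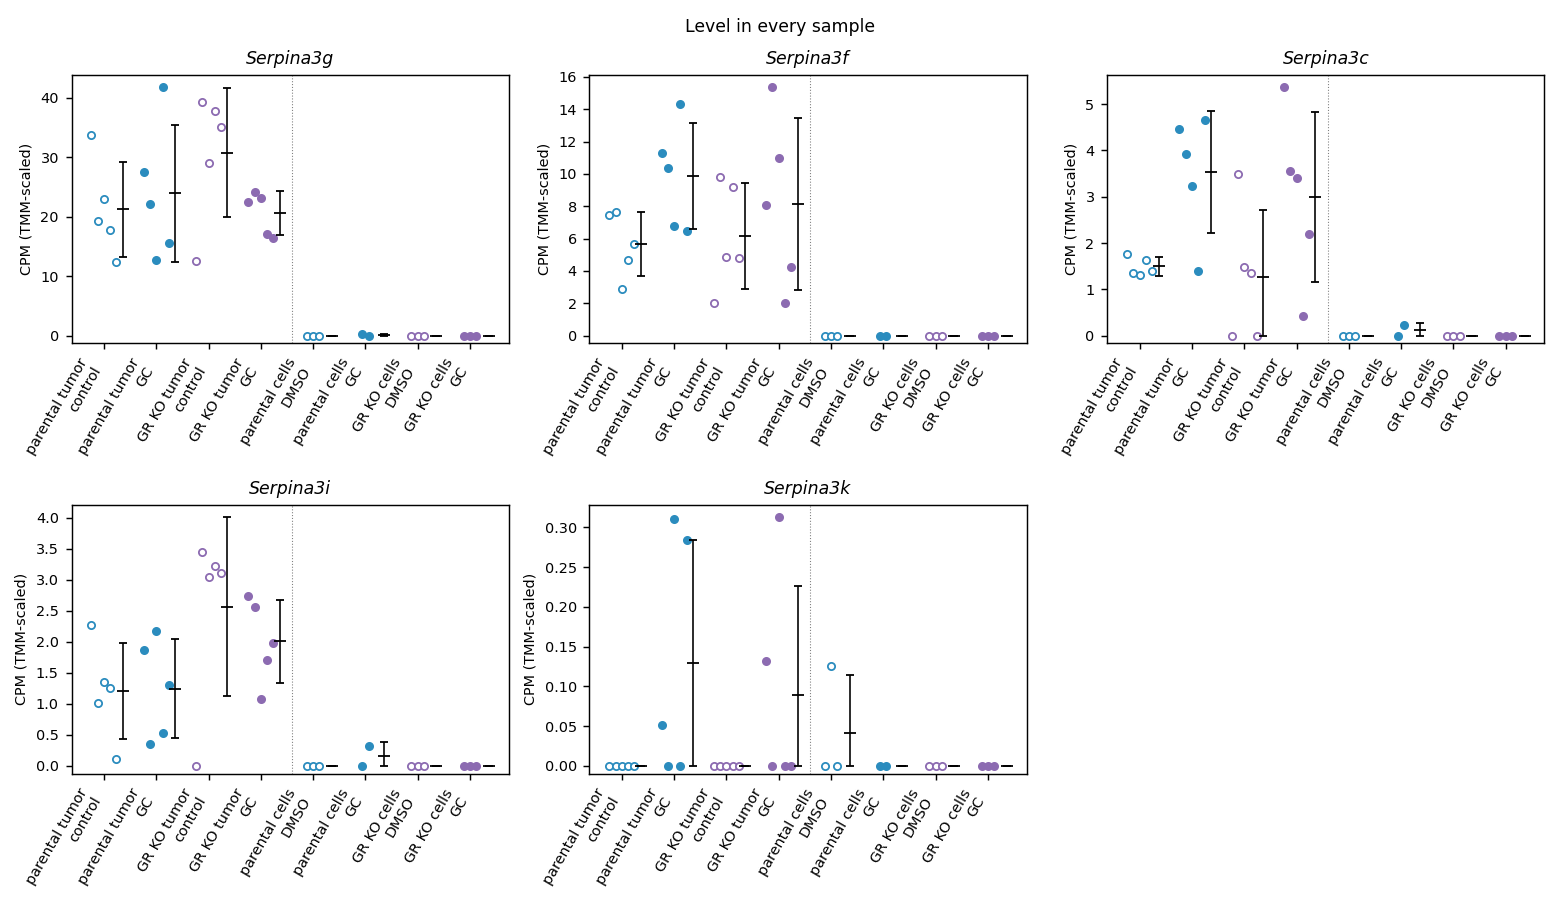
Level of Serpina3g, Serpina3f, Serpina3c, Serpina3i and Serpina3k in each of the 31 samples (CPM scaled with TMM factors, linear axes that differ between panels), by group. Open points are control or DMSO and filled points GC, and bars give the mean and SD, drawn no lower than 0. The tumor groups overlap for each of the 5 genes.

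Over the 20 tumors, Serpina3n moved with the summed level of 6 fibroblast markers (Col1a1, Col1a2, Pdgfra, Dcn, Lum and Dpt). All 6 were tested, none had 0 counts in a tumor, and Col1a1 was the most abundant except in parental GC tumor 1 and GR KO GC tumors 3 and 5, where Col1a2 was. The sum was 4085, 4123, 3732, 4315 and 4079 CPM in parental control and 6355, 5388, 6178, 5389 and 6783 CPM in parental GC tumors 1 to 5. In GR KO tumors 1 to 5 it was 2432, 2715, 2992, 4728 and 3371 CPM with control and 6801, 5173, 8111, 4440.5 and 7253 CPM with GC. In both genotypes the tumors with the highest Serpina3n were also high in this sum, and GR KO control tumor 4 was the highest control in both measures. Collagen genes lead the sum, and of the 6 markers 4 had a value above 0 with GC in parental and 5 in GR KO tumors.

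Pearson's r of Serpina3n with the fibroblast sum, both as log2(CPM + 1), was 0.911 over 20 tumors (permutation p = 1e-05, the smallest that 100000 permutations give, adjusted p = 3.3e-04 over 66 relations of members with marker sums and with genes detected). Spearman's rho was 0.910 (permutation p = 1e-05, adjusted p = 6.6e-04), r without the 2 tumors farthest from the median sum was 0.894, and r of deviations from the group means was 0.765. In bulk tumors, more fibroblasts and more RNA per fibroblast cannot be told apart, and the part of these cells in the Serpina3n values was not tested. In the cultures the same 6 markers summed to 2.03 to 54.4 CPM.

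Serpina3n also moved with the number of genes detected when each tumor was brought to 15528066 reads. That number was lowest, at 13399, in GR KO control tumor 1, where Serpina3n was lowest, and highest, at 16916, in parental GC tumor 1, where it was highest. Pearson's r was 0.869 (permutation p = 1e-05, adjusted p = 3.3e-04) and Spearman's rho 0.747 (permutation p = 2.4e-04, adjusted p = 0.00528) over 20 tumors. Without the 2 tumors farthest from the median, r was 0.727, and r of deviations from group means was 0.926.

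With this number as a covariate, chosen after seeing the data, edgeR called 2 of 6 members for GC in parental tumors beside 3.30% of all genes, Serpina3m (3.83, adjusted p = 0.0482) and Serpina3n (0.79, adjusted p = 0.0149). For GC in GR KO tumors it then called 1 of 6 beside 1.36% of all genes, Serpina3n (0.83, adjusted p = 0.0359), while Serpina3m had 5.63 with an adjusted p of 0.0647. Serpina3m passed the filter through GC tumors alone, so its call is not comparable with these shares. The covariate was measured after treatment and itself moved with Serpina3n, so these calls are not independent support for an effect of GC. Whether the number of genes detected reflects GC, RNA quality or composition was not tested.

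**Figure D3:**
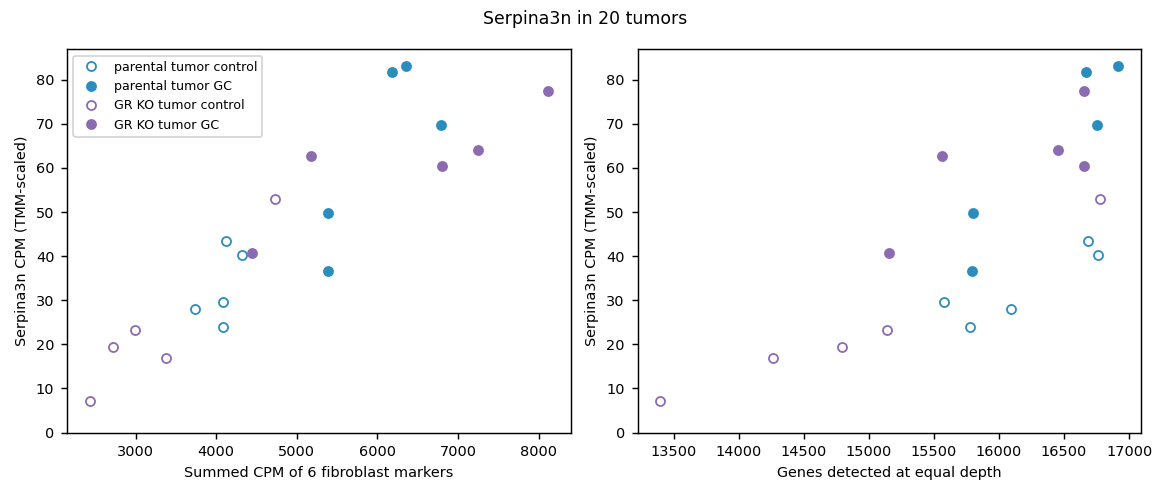
Level of Serpina3n (CPM scaled with TMM factors) in each of 20 tumors against the summed level of 6 fibroblast markers (CPM, left) and against the count of detected genes with all tumors brought to the same depth (right), on linear axes. Open points are control and filled points GC tumors. Serpina3n is higher in tumors with a higher marker sum, with r = 0.911 on the log2 scale.

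Serpina3m had an r of 0.717 with the fibroblast sum (permutation p = 4.7e-04, adjusted p = 0.00775) and a rho of 0.710 (permutation p = 6.9e-04, adjusted p = 0.00911) over 20 tumors. Without the 2 farthest tumors r was 0.765, and deviations from the group means gave 0.0990. Since Serpina3m passed the filter through GC tumors alone, the pooled r and its p do not show a relation apart from the GC difference.

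Of the 66 relations, 12 had an adjusted p of r under 0.05, and 6 of these were negative. Their p come from permutations over the pooled tumors and do not separate differences between groups from relations within them. Serpina3m gave 4 of the 12, and since it passed the filter through GC tumors alone, its pooled r carry the GC difference. The farthest from 0 among the negative ones was Serpina3m with 5 endothelial markers, with r = -0.755 (permutation p = 1.2e-04, adjusted p = 0.00264) and rho = -0.750 (permutation p = 2.1e-04, adjusted p = 0.00528). Without the 2 farthest tumors it was -0.708, and for deviations from the group means it was 0.140, of the opposite sign. The endothelial sum, mostly led by Kdr, was 45.5 to 69.3 CPM in parental control, 18.7 to 36.2 in parental GC, 83.6 to 107.4 in GR KO control and 42.1 to 52.0 CPM in GR KO GC tumors.

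Serpina3m and Serpina3n were both lower where 6 neutrophil markers were higher, with r of -0.712 and -0.607 (permutation p = 7.5e-04 and 0.00395, adjusted p = 0.00990 and 0.0237) and rho of -0.726 and -0.612 (permutation p = 4.3e-04 and 0.00520, adjusted p = 0.00709 and 0.0362). These r were -0.654 and -0.652 without the 2 farthest tumors, and -0.295 and -0.300 for deviations. With the melanocyte sum, r was -0.646 for Serpina3c, -0.633 for Serpina3m and -0.569 for Serpina3n (permutation p = 0.00221, 0.00361 and 0.00806, adjusted p = 0.0162, 0.0237 and 0.0443). There rho was -0.664, -0.501 and -0.609 (permutation p = 0.00185, 0.0258 and 0.00521, adjusted p = 0.0204, 0.122 and 0.0362), r without the 2 farthest tumors -0.632, -0.580 and -0.630, and deviations gave -0.579, -0.443 and -0.472. The melanocyte sum was 0 to 0.532 CPM in the cultures of these lines, so it cannot be read as the amount of melanoma cells. The part of any of these cells in the values was not tested.

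Serpina3c had an r of 0.651 with the fibroblast sum and 0.653 with the genes detected (permutation p = 0.00189 and 0.00175, adjusted p = 0.0162 for each). Its rho was 0.621 and 0.374 (permutation p = 0.00446 and 0.105, adjusted p = 0.0362 and 0.289), r without the 2 farthest tumors 0.540 and 0.315, and deviations gave 0.375 and 0.549. Serpina3g moved with the summed level of 6 T cell markers, with r = 0.644 (permutation p = 0.00208, adjusted p = 0.0162), rho = 0.605 (permutation p = 0.00548, adjusted p = 0.0362), 0.586 without the 2 farthest tumors and 0.638 for deviations. That sum, of which Cd3d was most often the leading gene, was highest in GR KO control tumor 4, at 149 CPM, where Serpina3g stood at 37.9 CPM. The part of T cells in the Serpina3g values was not tested.

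Over the 20 tumors with the groups pooled, the highest correlations among the 15 pairs of tested members were those among Serpina3c, Serpina3m and Serpina3n. Pearson's r was 0.698 for Serpina3c with Serpina3n, 0.692 for Serpina3c with Serpina3m and 0.680 for Serpina3m with Serpina3n (permutation p = 6.1e-04, 7.4e-04 and 7.6e-04, adjusted p = 0.0038 for each over the 15 pairs). Spearman's rho was 0.581, 0.656 and 0.675 (permutation p = 0.00802, 0.00226 and 0.00139, adjusted p = 0.0275, 0.0169 and 0.0169). Without the 2 farthest tumors r was 0.453, 0.755 and 0.690, and deviations from the group means gave 0.480, 0.478 and 0.163. The order changes for deviations, where Serpina3i with Serpina3n (0.667), Serpina3f with Serpina3g (0.654), Serpina3f with Serpina3m (0.627), Serpina3c with Serpina3f (0.592) and Serpina3g with Serpina3i (0.496) were above these 3 pairs. Since Serpina3m passed the filter through GC tumors alone, its pooled r carry the GC difference.

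With the groups pooled, Serpina3g had an r of -0.02 with Serpina3n and -0.05 with Serpina3m (permutation p = 0.926 and 0.843, adjusted p = 0.926 for each) and rho of -0.114 and -0.0267 (permutation p = 0.630 and 0.912, adjusted p = 0.800 and 0.968). Without the 2 farthest tumors r was -0.241 and -0.215, and deviations gave 0.332 and 0.260. With Serpina3i and Serpina3f its r was 0.513 and 0.507 (permutation p = 0.0215 and 0.0228, adjusted p = 0.0428 for each) and its rho 0.561 and 0.531 (permutation p = 0.0110 and 0.0176, adjusted p = 0.0275 and 0.0377). Those r were 0.264 and 0.448 without the 2 farthest tumors, and 0.496 and 0.654 for deviations. Serpina3f, Serpina3g and Serpina3i share 50-base stretches near their 3′ ends, and the part of shared reads in these r was not tested.

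The genes most like each member over the 20 tumors were found by Pearson's r of log2(CPM + 1) among all tested genes, as a description. For Serpina3n they were 6720427I07Rik (0.917), Trdn (0.917), Col1a2 (0.903), Arfgef1 (0.902) and Tpp2 (0.902). For Serpina3m they were Adrb1 (0.904), Mt2 (0.883), Tm6sf1 (0.877), Ssh2 (0.866) and Vcam1 (0.860). Those of Serpina3m had lower values for deviations from the group means, 0.310 to 0.682, than those of Serpina3n, 0.760 to 0.914.

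For Serpina3g the most alike genes were Vav1 (0.866), Mfsd7a (0.837), Apod (0.810), Il18bp (0.804) and Mag (0.794). For Serpina3f they were Ccdc55 (0.850), Cwf19l2 (0.825), Ogfrl1 (0.808), Cd274 (0.794) and Cxcl9 (0.793). Serpina3c was most like B3galnt1 (0.817) and Serpina3i most like Phactr1 (0.833).

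The glucocorticoid-responsive genes were a list of 12 known targets, given as a measure of the treatment beside the members. In tumors edgeR called 8 of 12 up with GC in parental and 6 of 12 up in GR KO tumors, with medians of 1.62 and 1.27 on the log2 scale beside 0.00 and 0.05 for all genes. The difference of the GC effects was called for 1 of 12, Mt1, with a median of 0.78. There 8 of 12 had an unadjusted p under 0.05, and DESeq2 called 3. For GR KO against parental GC tumors edgeR called 5 of 12, all lower in GR KO tumors. For this list and those below, edgeR called 0.779% of all genes with GC in parental tumors and 6.42% in GR KO tumors. The share was 0.195% for the difference of the GC effects and 0.634% for GR KO against parental GC tumors. In cultures 9 of 11 were called up in parental cells, with a median of 2.23, and 0 of 11 in GR KO cells, where 1 had an unadjusted p under 0.05 and DESeq2 called 0. Mean Tsc22d3 was 118 ± 2.24 CPM (SD, n = 2) in parental GC cultures, 13.8 ± 2.61 (SD, n = 3) with DMSO, and 17.4 ± 3.36 (SD, n = 3) in GR KO GC cultures.

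Serpina3n and Serpina3m were detected in both parental GC cultures and had 0 counts in GR KO cultures with GC, while in GR KO tumors both were higher with GC. Serpina3g had 4 counts in parental GC culture 1, and Serpina3c and Serpina3i had 5 and 7 counts in parental GC culture 2. Each of these genes had 0 counts in all other cultures. The cells of GR KO tumors that made these messages were not identified in bulk RNA.

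Other Serpina3 genes of the cluster were a list of 5, which does not hold every gene of that name. Of these 5, 3 were tested in tumors, and edgeR called 0 in each comparison, with 1 at an unadjusted p under 0.05 for GC in each genotype and 0 called by DESeq2. Serpina3a, Serpina3d-ps, Serpina3e-ps and Serpina3l-ps had 0 counts in all 31 samples. For Serpina3j in parental tumors, all 5 GC tumors, at 2.02 to 6.70 CPM, lay above all 5 controls, at 0.290 to 1.77 CPM (edgeR log2 fold change 2.12, adjusted p = 0.279, exact permutation p = 0.00794). In GR KO tumors its groups overlapped (0.49, exact permutation p = 0.333). Serpina3h had a GC value of 2.85 on the log2 scale in GR KO tumors (edgeR adjusted p = 0.166), with 3 of 5 GC tumors above all controls.

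Among the 55 other serpins of the table, 30 were tested in tumors. For GC in parental tumors edgeR called 0 of 30, with 6 at an unadjusted p under 0.05 and 0 called by DESeq2, and the median was -0.27 beside 0.00 for all genes. In GR KO tumors it called 1 up and 1 down, with a median of 0.04. The gene that rose was Serpinh1, a collagen chaperone with no inhibitor function (1.80, adjusted p = 0.00798, 4 of 5 GC tumors above all controls), and the gene that fell was Serpinb6e (adjusted p = 0.0146, 5 of 5 GC tumors below the control mean). Serpinb6e was at 0 to 0.0862 CPM with GC, under the floor of 3 counts, against 2.12 ± 1.60 CPM (SD, n = 5) in controls, so no fold is given.

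For GR KO against parental GC tumors, Serpine2 was called, lower in GR KO (-1.58, edgeR adjusted p = 0.0179, 4 of 5 below all parental ones). Between the lines with DMSO, edgeR called Serpinb9b higher in GR KO cells (1.18, adjusted p = 0.0238), and Serpine2 (-1.37, adjusted p = 0.00905), Serpinb8 (-1.21, adjusted p = 0.00640) and Serpinf1 (-0.71, adjusted p = 0.00201) lower, each in 3 of 3 cultures.

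Proteases that serpins of this family can meet were taken as a list of 14, of which 12 were tested in tumors. The only one edgeR called with GC was the cathepsin gene Ctsl, lower in parental tumors (-1.06, adjusted p = 0.0457, 5 of 5 below all controls), and in GR KO tumors it called 0 of 12, with 1 at an unadjusted p under 0.05 and 1 called by DESeq2. The list medians with GC were -0.29 in parental and 0.00 in GR KO tumors. The mast cell protease gene Mcpt4 fell from parental to GR KO GC tumors (-1.38, adjusted p = 0.00517, 5 of 5 below).

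Acute phase genes other than the members were a list of 17, with 11 tested in tumors. With GC, Cp, which encodes ceruloplasmin, rose in parental tumors (1.33, edgeR adjusted p = 0.0197, 5 of 5 above all controls), and C3 fell in GR KO tumors (-1.04, adjusted p = 0.0395, 5 of 5 below the control mean). The list medians were -0.11 and -0.12 beside 0.00 and 0.05 for all genes, against 0.88 and 0.84 for the members. Those of the members are raised by the inclusion of Serpina3m, which passed the filter through GC tumors alone. Between the lines with DMSO, edgeR called Cp (-4.29, adjusted p = 2.34e-05) and Hp (adjusted p = 0.0106) lower in GR KO cells, in 3 of 3 cultures. Hp was at 0 CPM in all 3 of these and at 0.332 to 1.02 CPM in parental DMSO cultures, and it passed the filter through parental cultures alone, so no fold is given. With GC in parental cells Cp was 1.12 (edgeR adjusted p = 0.188) and Hp 2.84 (adjusted p = 0.162), each higher in 2 of 2 cultures and called by DESeq2 alone. Cp was also called lower in GR KO than parental GC tumors (-1.77, edgeR adjusted p = 0.00275, 5 of 5 below all).

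From the IL-6 family and its STAT3 pathway, 15 genes were listed and 13 tested in tumors. Cebpd, whose product binds acute phase promoters, rose with GC in parental tumors (1.66, edgeR adjusted p = 0.00355, 5 of 5 above all controls) and in parental cells (1.23, adjusted p = 0.0222, 2 of 2). In GR KO tumors edgeR called 0 of 13, with 3 at an unadjusted p under 0.05 and 1 called by DESeq2. Il6st, the shared receptor chain, rose in parental cells (0.79, adjusted p = 0.0138, 2 of 2 above). Between genotypes, edgeR called Cebpd lower in GR KO than parental GC tumors (1 of 13, beside 0.634% of all genes). With DMSO it called Bcl3, Cebpb and Cebpd lower in GR KO cells (3 of 12, beside 8.22%). Bcl3 had at most 0.0546 CPM there, under the floor of 3 counts.

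The interferon gamma-inducible list, which bears on Serpina3g as a gene that this cytokine is known to raise, had 18 genes, all tested in tumors. In parental tumors edgeR called 0 of 18 with GC, with 6 at an unadjusted p under 0.05 and 2 called by DESeq2, and the median was -0.62. In GR KO tumors it called 3 down, Ciita, Igtp and Irf8, with a median of -0.38. Serpina3g itself was 0.18 and -0.55, and Serpina3f 0.80 and 0.43, in these comparisons.

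Promoter sequences from RefSeq (GRCm38.p6) were read because Serpina3c, Serpina3m and Serpina3n had the highest correlations over the pooled tumors. That order changes for deviations from the group means, and whether the promoters bear on the correlations was not tested. Of the 7 members 5 had an entry, with 6 promoters in all, each of 250 bases before the transcript start, and Serpina3k and Serpina3m had none. The promoters of Serpina3c, on the minus strand, and Serpina3n, on the plus strand, were 90.5% identical in alignment (229 identical bases, 18 mismatches and 6 gap bases), although the genes lie at opposite ends of the span. The next closest pairs were Serpina3c with Serpina3i at 64.4% and Serpina3f with Serpina3i at 64.1%.

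The motifs were searched on both strands. The 6 letters AGAACA, a half-site of the glucocorticoid response element, occur in 16.1% of 32851 promoters of the table, and here in Serpina3c at -180, Serpina3n at -183, Serpina3i at -164 and 1 of 2 Serpina3f promoters at -94 from the start. The full element, AGAACA and TGTTCT separated by 3 bases, occurs in 0.00913% of promoters and in none of these 6. A STAT site, TTC and GAA separated by 3 bases, occurs in 7.02% of promoters, and here in Serpina3g at -33, Serpina3i at -102 and both Serpina3f promoters. The 2 Serpina3f promoters overlap, and their STAT site is the same stretch of bases. A match is a run of letters only, and binding was not measured.

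The promoters of the most alike pair, and of Serpina3i and Serpina3g for contrast, are shown 5′ to 3′ on the strand of the gene, with AGAACA and the STAT site in capitals. They lie at chr12:104406458-104406707 (plus strand, Serpina3n), chr12:104153873-104154122 (minus strand, Serpina3c), chr12:104262872-104263121 (plus strand, Serpina3i) and chr12:104235897-104236146 (plus strand, Serpina3g).
Serpina3n: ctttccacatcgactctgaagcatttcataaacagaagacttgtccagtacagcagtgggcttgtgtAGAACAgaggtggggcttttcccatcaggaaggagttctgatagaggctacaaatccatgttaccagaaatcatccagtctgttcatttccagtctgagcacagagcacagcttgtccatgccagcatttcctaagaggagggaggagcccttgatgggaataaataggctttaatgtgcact
Serpina3c: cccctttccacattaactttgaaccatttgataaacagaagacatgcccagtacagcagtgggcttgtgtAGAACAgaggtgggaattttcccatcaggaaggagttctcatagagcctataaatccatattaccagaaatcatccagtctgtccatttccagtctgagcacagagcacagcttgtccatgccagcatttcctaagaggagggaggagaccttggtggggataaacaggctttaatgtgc
Serpina3i: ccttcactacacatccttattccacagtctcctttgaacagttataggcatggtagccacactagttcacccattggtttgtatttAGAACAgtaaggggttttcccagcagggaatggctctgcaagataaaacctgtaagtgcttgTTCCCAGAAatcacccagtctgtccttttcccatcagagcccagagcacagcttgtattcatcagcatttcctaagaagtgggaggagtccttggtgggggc
Serpina3g: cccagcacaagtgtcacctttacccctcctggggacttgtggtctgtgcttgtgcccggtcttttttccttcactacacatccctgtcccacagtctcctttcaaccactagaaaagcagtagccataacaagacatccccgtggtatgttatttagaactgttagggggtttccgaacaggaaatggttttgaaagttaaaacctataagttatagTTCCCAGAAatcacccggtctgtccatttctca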

How the data were processed

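RNA was sequenced from the 3′ ends of messages (QuantSeq FWD). The authors used Trim Galore for trimming, STAR for alignment (GRCm38) and featureCounts with Ensembl release 75 for the gene counts, which they deposited as raw integers. The strand setting of featureCounts is not stated. Groups follow the labels. The members and gene lists were chosen with earlier results of these data known.

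Tumors and cultures were fitted apart with edgeR 4.0.16 (TMM, quasi-likelihood test, R 4.3.3) over all genes with at least 0.5 CPM in at least 3 samples, with Benjamini-Hochberg adjustment. DESeq2 1.42.0 with default settings was an alternative, as were DESeq2 size factors, no filter, a replicate block, the compared groups alone and each sample left out. A fit with the number of genes detected as covariate was chosen after seeing the data. The pipeline was tested on simulated data. Single genes were compared by exact two-sided permutation of log2(CPM + 1). Correlations used 100000 permutations. Counting intervals are exact binomial (Clopper-Pearson) at a level of 0.95. Genes were named by a rule fixed in advance, though not every gene it allows is printed: all 7 members, every called gene of a list or its 3 most abundant genes where fewer were called, and the 5 genes most like each member by Pearson's r. Positions are from GENCODE M21, and promoters from RefSeq.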

Additional observations from a re-analysis of the deposited data

Results flagged for a closer look

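Among 26 groups of 5 tumors examined for a sample far from the others, 2 had one. Serpina3i was at 0 CPM in GR KO control tumor 1, while the other 4 of its group lay between 3.05 and 3.44 CPM. Serpina3m was at 0.0583 CPM, a single count, in GR KO control tumor 2, while the other 4 had 0 counts. Chance alone marks about 1 in 20 groups, a rate that does not apply to a single count among 0 counts, which the rule always marks.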

How the results depend on the processing

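The 868 alternatives to the values given above included 822 that kept direction and side of the threshold, or stayed within the spread between replicates. The count of members called kept its value in 158 of 163. For GC in parental tumors it was 2 in place of 0 (3.30% of all genes called, in place of 0.779%) with the number of genes detected as a covariate, an alternative chosen after seeing the data. For GC in GR KO tumors it was 1 in place of 2 with that covariate (1.36%, in place of 6.42%) and 1 when the 2 compared groups were fitted alone (2.62%). Leaving out 1 tumor at a time gave 1 to 2 there (1.91% to 15.2%), and 0 to 1 for GR KO against parental control tumors (0.385% to 11.1%). The cause was not tested in any of these.

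With the covariate, the log2 value of Serpina3i for GC in parental tumors reversed to -0.19, that of Serpina3c for the difference of the GC effects to 0.63 and between control tumors to 0.54, and that of Serpina3n to 0.15 between control and 0.19 between GC tumors. With DESeq2 size factors, Serpina3c reversed to 0.0212 for the difference. With a pseudocount of 0.1, Serpina3i reversed for GC in GR KO tumors (exact permutation p = 1).

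Leaving out 1 tumor at a time, values that crossed 0 ran from -0.13 to 0.41 for Serpina3g and from -0.24 to 0.42 for Serpina3i with GC in parental tumors, and from -0.87 to 0.31 for Serpina3c in the difference. Between control tumors they ran from -1.09 to 0.0820 for Serpina3c and from -0.14 to 0.32 for Serpina3f. Between GC tumors they ran from -0.55 to 0.0547 for Serpina3c, from -0.37 to 0.10 for Serpina3g and from -0.19 to 0.0681 for Serpina3n. None of these was past the threshold in any fit.

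With a replicate block, the members called were 0 for GC in parental tumors (1.03% of all genes), 2 for GC in GR KO tumors (6.24%) and 0 for the difference (0.905%) and between control (2.28%) and GC tumors (1.01%). Same-numbered tumors of different groups had a mean correlation of 0.0581 over 30 pairs, and same-numbered cultures 0.0199 over 15.

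Depth limits Serpina3k and Serpina3m, whose control groups of tumors hold 0 to 16 counts. In cultures Serpina3m and Serpina3n reached 0.5 CPM in both parental GC cultures, and the filter asks for 3. In the fits that leave 1 parental GC culture, that culture is assumed to vary like the other groups.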
